A study of Homo sapiens with 9 samples.

Results

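The HOX genes encode homeodomain transcription factors and lie in 4 clusters, HOXA to HOXD, on 4 different chromosomes. In the embryo their order along each chromosome follows the order of the body regions in which they act, so that low paralog numbers are used in the hindbrain and neck and high numbers in the trunk, limb and urogenital tract. HOX proteins bind DNA together with PBX and MEIS homeodomain partners, silent clusters are held by Polycomb complexes and active ones by Trithorax complexes, and cultured cells usually keep the HOX pattern of the tissue they came from. The HOX genes described here were chosen by name. The list holds 38 HOX genes, of which 37 were found among the 54562 genes of the expression table and 33 had a mean of at least 1 FPKM and were tested along with 13801 genes in all. HOXB7 was not analysed here, because its identifier in the annotation used was not among the table's identifiers.

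Expression was measured by polyA-selected, strand-specific RNA-seq in HEK293, an established human line derived from embryonic kidney and transformed with adenovirus DNA. Cells were transfected with an empty vector (EV), with a plasmid for the *Alu* exon skipping isoform of the RNA editing enzyme ADARB1 (Short), or with a plasmid for its *Alu* exon inclusion isoform (Long), and were collected after 48 hours. Each group had 3 libraries, and the labels give only replicate numbers 1, 2 and 3. The transfections were repeated in 3 passages of the line, so each number was taken as 1 passage shared by the groups. Transfection was transient with Lipofectamine 2000, no selection of transfected cells was described, and all 3 groups received a plasmid, so untransfected HEK293 cells were not part of the comparison. Values are FPKM, the fragments of a gene scaled to gene length and library size, so that levels of different genes can be compared within a library.

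ADARB1 itself was at 7.66 to 8.61 FPKM in the EV libraries, 1889 to 4145 in Short and 1695 to 3449 in Long. The FPKM of a library summed to between 517170 and 589535. No read counts were given, so the absolute depth is unknown. A depth relative to EV replicate 1 was estimated from the steps between the lowest values. It was 1.16, 1.21 and 1.11 in replicate 3 of EV, Short and Long, and 0.993 to 1.07 in the other libraries. Only 22.5% to 46.1% of the genes used lay close to the estimate. Of the markers of HEK293 lineage, the intermediate filament genes KRT8 and VIM were at 176 ± 13.1 and 143 ± 9.34 FPKM (SD, n = 3) in EV. Of 10 measured markers of leucocytes, hepatocytes, fibroblasts, endothelium and squamous epithelium, 9 were under 1 FPKM in EV and COL1A1, a collagen gene, was at 9.10 to 12.0. In bulk RNA, fewer cells using a gene and less RNA per cell cannot be told apart.

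The first question was which HOX genes these cells used with the empty vector. All 4 clusters were expressed, and genes from the posterior end had the highest levels. In the EV libraries 33 of the 37 genes reached a mean of 1 FPKM, 14 of them 10 FPKM or more, 9 of them 5 to 10 and 10 of them 1 to 5. Their median was 8.66 FPKM, compared with 11.6 for the 13815 genes of the table that reached 1 FPKM in EV.

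In the HOXA cluster (chr7:27139973-27239710 of GRCh37, minus strand, 10 genes of the list) the highest level was that of HOXA10, which patterns the uterus and the lumbar region. HOXA10 was at 22.3, 19.9 and 23.9 FPKM in EV replicates 1 to 3. HOXA9, a regulator of blood progenitors that is often raised in leukaemia, was at 13.3, 16.4 and 18.8 FPKM. Its range did not reach that of HOXA10 in EV. HOXA4 was at 11.8 ± 1.84 FPKM (SD, n = 3), and HOXA5, which is needed for the lung, at 12.3, 9.91 and 10.8.

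Towards the posterior end of the HOXA cluster, HOXA11, which with HOXD11 is needed for kidney and forearm, was at 7.69 ± 0.71 FPKM. HOXA13, which patterns the hand, foot and genital tract, was at 8.05 ± 1.21. HOXA3, needed for thymus and parathyroid, was at 6.51 ± 0.64, HOXA7 at 5.86 ± 0.051 and HOXA6 at 4.03 ± 0.93. HOXA2, which sets the identity of the second branchial arch, had a mean of 0.587 FPKM and was the closest of all to 1 FPKM from below.

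In the HOXB cluster (chr17:46605888-46806112, minus strand, 9 genes) 1 gene stood above the rest. HOXB9, which acts with its paralogs in the thoracic skeleton, was at 44.5, 39.7 and 37.4 FPKM in the EV libraries, the highest HOX level in each of them and above 83.8% of the expressed genes. HOXB3 was at 18.3 ± 0.85 FPKM and HOXB6 at 16.4, 15.2 and 18.2. HOXB8 (8.66 ± 1.03), HOXB2 (4.57 ± 0.30), HOXB4 (4.53 ± 0.21) and HOXB5 (2.19 ± 0.28) followed. HOXB13, which lies apart from the rest of its cluster and is known from the prostate, was at 3.36 ± 0.24. HOXB1, the hindbrain gene at the anterior end, was listed at 0 in all 9 libraries. Of the genes on the other lists, RXRB, which most cell types express, RING1, CDX4 and KRT5 were also at 0 in all 9. Whether the 0 of HOXB1 was an absence of RNA or a failed estimate was not tested.

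The HOXC cluster (chr12:54332615-54449814, plus strand, 9 genes) had the lowest sum. HOXC4 was its highest gene, at 20.0, 19.5 and 15.7 FPKM in EV, and was followed by HOXC10 (12.4 ± 0.96), HOXC9 (11.1 ± 0.57) and HOXC6 (10.8 ± 0.68). HOXC13, known for its role in hair and nails, was at 9.07 ± 0.34 FPKM. HOXC8, HOXC5 and HOXC11 were at 2.90 ± 0.11, 2.19 ± 0.43 and 1.89 ± 0.42. HOXC12 was at 0.562 ± 0.34, under 1 FPKM in each EV library.

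HOXC4 and HOXC5 are an example of how close these genes lie. In the RefSeq promoter table for GRCh38.p14, in which 20 of the genes were found, both have the same start on the plus strand of chromosome 12. The 30 bases around it, at chr12:54016873-54016902 of that build, are shown because 1 stretch serves as the RefSeq start of both genes; the 15 bases from the start onwards are in capitals.
HOXC4 and HOXC5: cgttccgagcgctccGCAGAACAGTCCTCC
In the GENCODE annotation of GRCh37 used for the other positions, HOXC4 starts at 54410715 and HOXC5 at 54426834, and the exons of both do not overlap. HOXC4 was 8.48 ± 0.75 times as high as HOXC5 in FPKM over the 3 EV libraries, with ratios between 7.70 and 9.19.

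In the HOXD cluster (chr2:176957449-177055635, plus strand, 9 genes) the posterior genes led. HOXD10 was at 35.0, 33.1 and 29.7 FPKM in EV, second only to HOXB9. HOXD11 was at 19.9 ± 1.65 and HOXD13, the digit gene, at 19.0 ± 0.81. HOXD12, which lies between HOXD11 and HOXD13, was at 0.141 ± 0.075 FPKM, and its values in the 9 libraries were all below those of both neighbours. HOXD8 (9.71 ± 0.87), HOXD4 (5.98 ± 0.26), HOXD3 (5.14 ± 0.41) and HOXD9 (4.25 ± 0.053) were intermediate. HOXD1 was the expressed gene closest to 1 FPKM from above, at 1.15 ± 0.14.

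When the 37 genes were ordered by EV mean, the 3 EV values of neighbours in the order overlapped in 28 of 36 pairs. The 8 pairs with separate ranges included HOXB9 over HOXD10 and HOXD10 over HOXA10 at the top, and HOXD1 over HOXA2 at 1 FPKM. From HOXA10 down to HOXA7 the range of each gene overlapped that of the next, so 3 libraries did not separate neighbours there, whereas genes further apart in that stretch, such as HOXA10 and HOXA9, did not overlap.

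Summed over genes, the EV mean was 93.8 ± 3.52 FPKM for HOXA, 98.8 ± 3.96 for HOXB, 69.3 ± 3.52 for HOXC and 98.0 ± 4.98 for HOXD. The EV ranges of HOXA, HOXB and HOXD overlapped, and HOXC lay below all of them in each library. By position, the 16 posterior genes (paralog groups 9 to 13) held 58.0 ± 0.86% of the summed HOX FPKM in EV, the 14 central genes (groups 4 to 8) 31.9 ± 0.46% and the 7 anterior genes (groups 1 to 3) 10.1 ± 0.86%. The posterior share was 58.3 ± 1.45% in Short and 58.6 ± 0.96% in Long, a difference within the spread of the EV libraries. In the HOXA cluster the sums of the 3 Short libraries, 99.4 to 106 FPKM, lay above those of the 3 EV libraries, 89.8 to 96.4. By pairs of the same replicate number, the sums of HOXA, HOXB and HOXC were higher than EV in 3 of 3 pairs with either isoform, and those of HOXD in 2 of 3 with Short and 1 of 3 with Long. The library totals were also higher with the isoforms. When each library was rescaled to an equal total (the TPM scale), HOXA in EV was at 178, 171 and 184 and in Short at 179, 179 and 186, so the ranges overlapped, and HOXA in Long was lower than EV in 3 of 3 pairs. On that scale HOXB and HOXC were higher in 2 of 3 pairs with either isoform. HOXD was lower in 3 of 3 pairs with either. HOXD in Short (174, 179.2 and 169.97) lay below EV (189.7, 188 and 179.3), but Short replicate 2 and EV replicate 3 were nearly equal. The direction of a cluster sum therefore depended on the scaling.

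Exons of neighbouring HOX genes overlap in the annotation, which limits what the level of a single gene means. Of the 37 genes, 10 shared exon sequence with another gene on the same strand, at most 21.4% of the exon length (HOXD11, with HOXD10), and 19 with a gene on the opposite strand, at most 62.5% (HOXA7). Whether strand was used in computing FPKM is not given in the sources used here. HOXB9, HOXB13 and HOXD13 had no such overlap.

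The next question was whether either ADARB1 isoform changed the HOX genes. Tested with limma on log2(FPKM + 1), with the replicate number as a block and Benjamini-Hochberg adjustment over all 13801 genes, none of the 33 HOX genes passed an adjusted p of 0.05 in Short against EV, in Long against EV or in Long against Short. Of all genes tested, 0.0362%, 8.32% and 0.00725% passed in these comparisons. The lowest adjusted p of a HOX gene (limma) was 0.110 in Short, 0.0940 in Long and 0.669 between both isoforms. Short and Long were compared with the same EV libraries, so their values are not independent of each other.

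At an unadjusted p under 0.05, 6 HOX genes differed in Short, all higher than in EV, against 22.0% of all genes. In Long the number was also 6, of which 5 were higher and HOXD8 was lower, against 24.4%. Between Long and Short there were 0, against 7.54%. The shares of the HOX genes, 18.2%, 18.2% and 0%, were below those backgrounds.

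HOXB2, a hindbrain patterning gene, had the largest estimate in Short. Its EV libraries were at 4.34, 4.92 and 4.46 FPKM, its Short libraries at 6.13, 5.83 and 5.73 and its Long libraries at 5.14, 5.16 and 5.89, so the libraries of either isoform lay above all EV libraries. The difference on the log2(FPKM + 1) scale was 0.31 ± 0.088 (SE) in Short, with a limma adjusted p of 0.111, and 0.20 ± 0.088 in Long, with an adjusted p of 0.197. The exact permutation test of 3 against 3 libraries gave p = 0.1 for both, the smallest that this design allows.

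HOXB13 was at 3.63, 3.26 and 3.19 FPKM in the EV libraries, 4.40, 4.52 and 3.89 in the Short libraries and 4.31, 4.77 and 3.47 in the Long libraries. Short lay above EV without overlap, whereas 1 Long library fell within the EV range. The log2 difference was 0.27 ± 0.092 in Short and 0.24 ± 0.092 in Long (limma adjusted p = 0.139 and 0.138).

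HOXA9 was higher with either isoform than with EV in 3 of 3 pairs of the same replicate number. The Short libraries were at 16.0, 19.5 and 23.6 FPKM and the Long libraries at 16.5, 17.9 and 21.4, ranges that overlapped with EV because the replicates differed among themselves. The log2 difference was 0.27 ± 0.065 in Short and 0.20 ± 0.065 in Long (limma adjusted p = 0.110 and 0.0969).

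HOXC10 was at 13.5, 11.9 and 11.9 FPKM in EV and at 15.6, 14.4 and 13.2 in Long, a log2 difference of 0.20 ± 0.066 with a limma adjusted p of 0.0940. HOXB9, the highest HOX gene, had a difference of 0.15 ± 0.054 in Long (adjusted p = 0.125). HOXD8 was at 10.1, 10.3 and 8.71 FPKM in EV and at 8.80, 8.73 and 7.71 in Long, a difference of -0.19 ± 0.081 (adjusted p = 0.193). HOXA6 and HOXA5 had unadjusted p-values under 0.05 in Short, with log2 differences of 0.23 ± 0.090 and 0.16 ± 0.068 (limma adjusted p = 0.174 and 0.214). None of these differences passed the limma test after adjustment over all genes tested.

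Ranges without overlap were also no more frequent among the HOX genes than in the table. In Short, 2 of 33 genes (HOXB2 and HOXB13) had all libraries above EV, against 10.9% of all genes, and 0 had all below, against 2.11%. In Long, 3 genes (HOXB2, HOXC6 and HOXD9) had all libraries above, against 10.5%, and 0 had all below, against 3.14%. HOXC6 was at 10.1, 10.8 and 11.5 FPKM in EV and at 12.8, 12.4 and 11.9 in Long, a log2 difference of 0.18 ± 0.086 (limma adjusted p = 0.227), and that of HOXD9 was 0.17 ± 0.088 (adjusted p = 0.277).

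**Figure D1:**
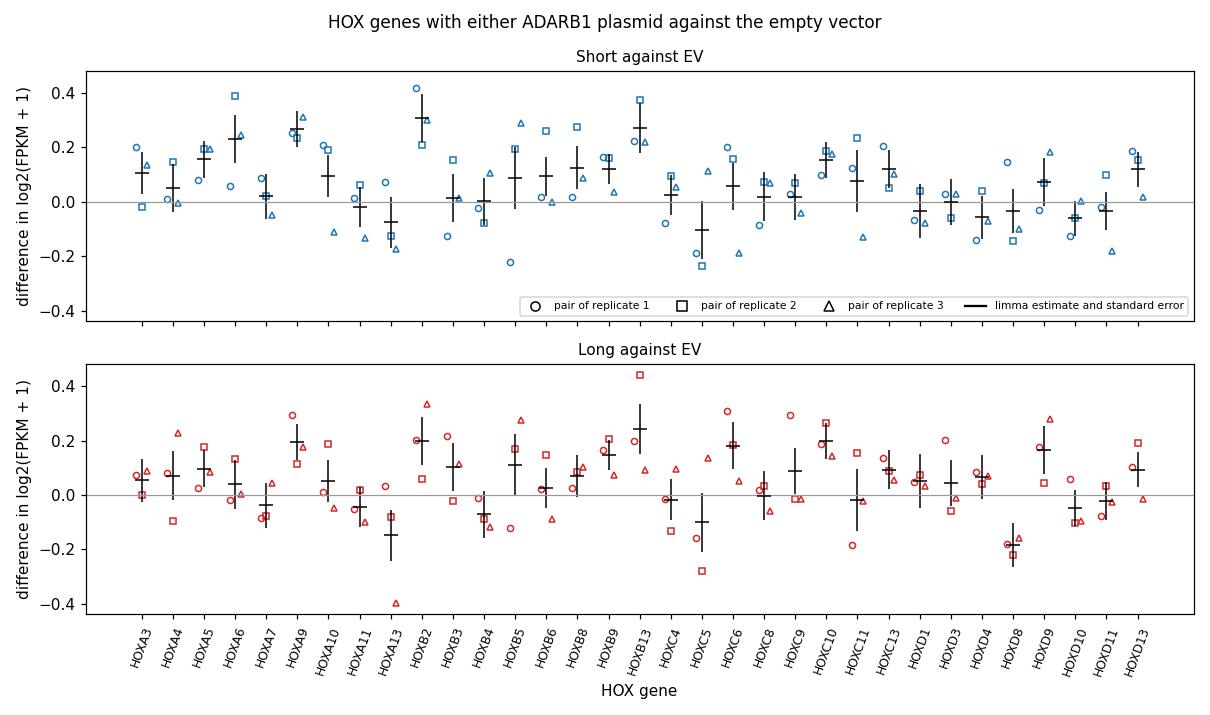
Difference in log2(FPKM + 1) from EV for the 33 HOX genes tested, with Short above and Long below. Open symbols are the pairs of the same replicate number, and the black mark and bar are the limma estimate and its standard error; estimates lie between -0.10 and 0.31 in Short and between -0.19 and 0.24 in Long.

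As a group the HOX genes lay close to all genes. The median log2 difference was 0.06 in Short and 0.05 in Long, beside 0.04 and 0.04 over all genes tested, and 24 and 22 of the 33 genes were higher than in EV (72.7% and 66.7%, beside 61.0% and 60.7%). When the FPKM of each library was rescaled to an equal total, the Short median of the HOX genes turned to -0.02 and that of all genes to -0.03. After correction for GC content the HOX medians were -0.03 in Short and -0.03 in Long, beside 0.01 and 0.02 over all genes. HOX transcripts had a median GC content of 55.2%, compared with 47.8% for all genes tested. Across genes, which are not independent replicates, the log2 difference from EV had a Spearman correlation with GC content of 0.62 in Short and 0.52 in Long. The part of GC content in the HOX values beyond this correction was not tested.

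More HOX genes passed the test between replicate numbers than between plasmids. In the same fit, 9 of 33 genes differed between the 3 passages (moderated F test, limma, adjusted p under 0.05), namely HOXA4, HOXA6, HOXA9, HOXA13, HOXB9, HOXC4, HOXC11, HOXD10 and HOXD11. This share of 27.3% was not above that of all genes, 36.4%. Libraries of the same number are taken to share a passage and may share a day or a library batch, which cannot be told apart here.

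Most of the difference was between replicates 3 and 1. Of the 33 genes, 10 passed in that comparison, against 36.4% of all genes. HOXA9 was the only one of them higher in replicate 3 (14.8% of all genes), and the other 9, which were the remaining 8 of the list above and HOXD8, were lower (21.6%). With a correction for GC content, 6 genes passed, 3 higher (HOXA9, HOXB6 and HOXD4) and 3 lower (HOXA6, HOXA13 and HOXB9), against 15.7% higher and 17.3% lower among all genes. The preponderance of lower HOX genes was thus not seen with that correction, but it was with an equal total (1 higher and 5 lower), the median ratio (1 and 7) and no trend (1 and 10). With an equal total the calls among all genes shifted to 21.9% higher and 13.1% lower. They were 19.5% and 15.6% with the median ratio, and 14.2% and 20.3% with no trend. GC content correlated with the log2 difference across genes here too (Spearman -0.46).

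HOXA9 was at 13.3, 16.0 and 16.5 FPKM in the EV, Short and Long libraries of replicate 1 and at 18.8, 23.6 and 21.4 in those of replicate 3. All 3 libraries of replicate 3 lay above all of replicate 1. The log2 difference was 0.45 ± 0.065 with a limma adjusted p of 0.000810, and it ranged from 0.45 to 0.56 over the 7 alternatives to the analysis. HOXA10, its neighbour, had a difference of -0.03 ± 0.077 (adjusted p = 0.782). An annotated gene that spans both (ENSG00000257184) was listed at 0 in 8 libraries and at 0.214 FPKM in Short replicate 2.

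HOXA13 was at 9.28, 9.80 and 9.51 FPKM in the EV, Short and Long libraries of replicate 1, at 6.85, 6.20 and 6.42 in replicate 2 and at 8.03, 7.01 and 5.86 in replicate 3. Replicate 1 was thus above both other passages without overlap. The log2 difference of replicate 3 from replicate 1 was -0.41 ± 0.093 (limma adjusted p = 0.00679). Its transcript had the lowest GC content of the HOX genes tested, 43.7%.

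HOXB9 was at 44.5, 50.0 and 50.0 FPKM in replicate 1 and at 37.4, 38.3 and 39.4 in replicate 3, also without overlap. The log2 difference was -0.32 ± 0.054 (limma adjusted p = 0.00166), and -0.18 with the GC correction (adjusted p = 0.0186). HOXA6 and HOXA4, at -0.39 ± 0.090 and -0.36 ± 0.089, had adjusted p-values of 0.00759 and 0.0103. With the GC correction they were at -0.25 and -0.22, and HOXA4 no longer passed (adjusted p = 0.0664).

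The remaining genes lower in replicate 3 had smaller or less certain differences. HOXC11 (-0.40 ± 0.11) had a limma adjusted p of 0.0209 at a level of about 2 FPKM, and did not pass with the GC correction (-0.26, adjusted p = 0.0782) or with no filter on low values (0.0787). HOXD8, HOXD11, HOXC4 and HOXD10 had differences of -0.27, -0.26, -0.25 and -0.24, with adjusted p-values between 0.0164 and 0.0271. None of these 4 passed with an equal total (-0.19, -0.17, -0.17 and -0.15, adjusted p from 0.0610 to 0.117) or with the GC correction (-0.13, -0.13, -0.13 and -0.15, adjusted p from 0.105 to 0.204). HOXD10 and HOXD11 share exons, as do HOXC4 and HOXC6, so HOXD10 and HOXD11 were not measured wholly apart from each other.

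Counted over all HOX genes, 14 had all 3 libraries of replicate 3 below all of replicate 1, against 28.5% of all genes, and 2 (HOXA9 and HOXB6) had all above, against 17.5%. Between replicates 2 and 1 no HOX gene passed the limma test, against 0.275% of all genes, with 7 (21.2%) at an unadjusted p under 0.05, against 14.5%. Between replicates 3 and 2, 4 genes passed (HOXA4, HOXA9, HOXB9 and HOXC4), against 32.2%. At the other end, HOXA7, HOXB2, HOXB4 and HOXD3 differed by at most 0.0749 on the log2 scale between any 2 passages. Over the 9 libraries the median SD of log2(FPKM + 1) was 0.12 for the HOX genes and 0.15 for all genes tested.

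Genes that work with or act on the HOX clusters were followed in lists. Of the PBX, MEIS and PKNOX partners, 8 of 9 were tested and 0 passed with either isoform in limma (unadjusted p under 0.05 in 0 for Short and 1 for Long). PBX3 was at 13.4 ± 1.89 FPKM in EV. Between passages 3 of them (37.5%) differed, MEIS2, MEIS3 and PKNOX2, of which MEIS3 was at 19.0, 16.8 and 11.2 FPKM in EV. The share of all genes that differed between passages, against which the counts of this and the following lists are read, was 36.4%. For the isoform counts of these lists, the shares of all genes were 0.0362% in Short and 8.32% in Long. At an unadjusted p under 0.05 they were 22.0% and 24.4%.

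Of the 17 Polycomb genes tested, 0 passed in Short and 1 in Long (5.88%, against 8.32% of all genes). At an unadjusted p under 0.05 there were 3 and 5, against 22.0% and 24.4% of all genes. SUZ12, a core subunit of the complex that methylates histone H3 at lysine K27, was at 21.8, 21.4 and 31.3 FPKM in EV and at 14.0, 14.4 and 24.99 in Long. It was lower in Long in 3 of 3 pairs, with a log2 difference of -0.49 ± 0.079 (limma adjusted p = 0.00965). Its call was lost in 5 of 12 alternatives, among them the analyses without replicate 1 (-0.43, adjusted p = 0.128) and without replicate 2 (-0.46, adjusted p = 0.0725). With the GC correction the difference was smaller, at -0.27 (adjusted p = 0.0900). Over the alternatives the adjusted p ranged from 0.00524 to 0.670. In Short the difference was -0.23 ± 0.079 (adjusted p = 0.138), and Long against Short did not pass (adjusted p = 0.547). Between passages 8 Polycomb genes (47.1%, against 36.4% of all genes) differed, EED, SUZ12, JARID2, AEBP2, MTF2, RNF2, BMI1 and PHC3.

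Of the 12 Trithorax genes tested, 0 passed with either isoform (3 at an unadjusted p under 0.05 with each) and 3 (ASH2L, PSIP1 and KDM6B) differed between passages. Upstream regulators of HOX expression include the caudal factor CDX2, which was at 12.9, 12.6 and 14.4 FPKM in EV, and the retinoic acid receptors RARA, RARB and RARG, which were at 7.89, 3.87 and 5.15 FPKM. Of 10 such regulators tested, 0 passed with either isoform (3 at an unadjusted p under 0.05 with each), and RARB and ZNF143 differed between passages.

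The noncoding RNAs inside the clusters were expressed as well. HOTAIRM1, transcribed at the anterior end of HOXA, was at 33.8, 28.1 and 32.8 FPKM in EV, and HOXB-AS3 at 11.2 ± 0.52. HOTAIR, an RNA of the HOXC cluster, was at 8.14, 5.21 and 5.71 FPKM. None of the 12 tested passed with either isoform (1 at an unadjusted p under 0.05 with each), and HOTAIR, HOXA11-AS and HAGLR differed between passages. Of the genes that flank the clusters, 6 of 12 were under 1 FPKM in EV, among them EVX1 and EVX2, the homeobox genes next to HOXA13 and HOXD13, at 0.170 ± 0.068 and 0.0913 ± 0.064. The flanking genes MTX2, SKAP2 and HIBADH were at 42.1, 30.2 and 22.2 FPKM. None of the 6 tested passed with either isoform (0 at an unadjusted p under 0.05), and SKAP2 and CBX5 differed between passages.

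Of the 7 HEK293 lineage markers tested, 1 (14.3%, against 8.32% of all genes) passed in Long. This was KRT8, by 0.20 ± 0.054 on the log2 scale with a limma adjusted p of 0.0499. NEFM, VIM, KRT8 and KRT18 differed between passages, as did the collagen gene COL1A1. The part of these markers in the passage differences of the HOX genes was not tested.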

How the data were processed

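HEK293 cells of 3 groups with 3 libraries each were grouped by their labels. The authors aligned strand-specific read pairs with TopHat (version 1.4.1), first against Ensembl transcripts and afterwards against hg19, and deposited 1 table of FPKM per gene and library; Cufflinks is named in the submitters' processing notes. FPKM divides by the library total, so very abundant transcripts, such as that of the plasmid, can lower the values of other genes. In these libraries the median log2 difference from EV over all genes tested was 0.04 in Short and 0.04 in Long. Gene names, positions and exon overlaps were taken from GENCODE for GRCh37, and promoter starts from RefSeq for GRCh38.p14.

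The pseudocount was 1 on the log2 scale, and limma (version 3.58.1, under R 4.3.3) was fitted with an intensity trend to the 13801 genes whose mean over the libraries reached 1 FPKM, with group and replicate number as terms and a Benjamini-Hochberg threshold of 0.05. A fold change on this scale understates the change of low genes. Single genes were also compared with exact two-sided permutation tests, whose smallest p was 0.1, or 0.25 when paired. The fit was tested on simulated data.

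Replicate numbers were taken to pair the samples because transfections were repeated in different cell passages. The labels do not name the passage. Deviations from the group means correlated at 0.55 on average between libraries of the same number (lowest 0.33) and at -0.26 between different numbers. Because each group was centred on its own mean, the negative value follows largely from the positive one and is not separate evidence. No source used here says how separate the passages were, so p-values measure the spread between these libraries, which may be technical.

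Named were all HOX genes whose mean reached 1 FPKM, all that passed in a comparison, and list members that passed in one; PBX3, CDX2, RARA, RARG, RXRB, HOTAIRM1, HOXB-AS3, EVX1, EVX2, MTX2 and HIBADH were added after their values were seen. The HOX genes and lists were chosen with earlier results of these data known. Alternatives were another pseudocount (0.1), 2 rescalings, no block, fits of only the groups compared, no trend, no filter or 5 FPKM, a loess correction for GC content (span 0.3) and leaving out each replicate.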

Additional observations from a re-analysis of the deposited data

How the results depend on the processing

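No HOX gene passed in Short against EV, Long against EV or Long against Short under any of 12 alternatives, including the fit with no replicate block, which gave 0 in each. Of all genes, 0.0145% passed in Long against EV with no block, 0.0145% without replicate 1 and 0.00366% with no filter. The largest share there was 11.6%, at a mean of 5 FPKM. In Short against EV the largest was 0.428%, and in Long against Short 0.0652%, both without replicate 3. A count of 0 HOX genes says little where so few of all genes passed. The 33 HOX genes at 1 FPKM or more in EV became 35 at a limit of 0.5 FPKM and 23 at 5 FPKM. The 9 HOX genes that differed between passages became 3 when FPKM was rescaled to the same sum, 5 with the median ratio, 3 with no filter on low values and 4 with a GC correction; leaving out 1 replicate gave 0 to 10, with 3 without replicate 1 and 0 without replicate 3. Over all genes the share between passages, 36.4%, was 35.2% and 35.3% with these rescalings, 10.5% with no filter, 30.1% with a GC correction, 31.5% without replicate 1 and 0.217% without replicate 3. Of the 9, 3 were among those called after rescaling to the same sum, with the GC correction and with no filter. The partner and regulator lists, with 8, 17, 12, 12, 6 and 10 genes tested, had 1 gene called in Long against EV. They gave 2 with either rescaling, 3 at a mean of 5 FPKM, and 0 with no replicate block, no filter or a GC correction. Leaving out 1 replicate gave 0 (without replicates 1 or 2) to 3 (without replicate 3). Of all genes, 8.32% passed in the main fit, 9.27% and 9.01% with the rescalings and 11.6% at a mean of 5 FPKM. The share was 1.84% with a GC correction, 0.725% without replicate 2 and 7.47% without replicate 3. The rescaled cluster sums were added after seeing the data. The block changed no call of a HOX gene. Causes of these changes were not tested.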
